A study of Mus musculus with 9 samples.

Results

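Medullary thymic epithelial cells (mTEC) were compared with cortical thymic epithelial cells (cTEC) sorted from mice that carried the Foxn1 transgene in the homozygous state, the higher of the dosages in the series. The comparison used the 2 mTEC and 3 cTEC RNA-seq libraries whose labels give this genotype and sort, which are 5 of the 20 libraries in the deposited count table, and it was described over all 38720 gene symbols of that table. Both groups had the genotype wt*/wt*::nu/nu: Foxn1 was supplied by a bacterial artificial chromosome (BAC) transgene, with wt* standing for a FLAG-tagged FOXN1, and the endogenous Foxn1 alleles were the nude (nu) mutation, so that no mouse here was an ordinary wild type. Cells negative for the leukocyte marker CD45 and positive for EpCAM and class II major histocompatibility complex (MHCII) were sorted as cTEC when Ly51+ UEA1- and as mTEC when Ly51- UEA1+. For the same subset difference at a lower dose, 2 mTEC and 3 cTEC libraries of heterozygous transgenic mice (wt*/-::nu/nu) were used. Neither the labels nor the file headers give age, sex or how many mice stand behind a library, so p-values measure only the spread between these libraries, which may be technical. For the number of genes detected, 5 cTEC libraries of doxycycline-treated control mice were also plotted, and they entered no test. Those mice had the beta5t-rtTA locus and Foxn1 fl/fl but not the tetO-Cre transgene.

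FOXN1 is the forkhead transcription factor on which development and upkeep of the thymic epithelium depend, and nude mice lack a functional form of it. In the thymic cortex, cTEC attract lymphoid progenitors, drive them into the T lineage through the Notch ligand DLL4 and display self peptides that positively select young T cells. In the medulla, mTEC present peptides of genes that are otherwise restricted to other tissues, so that self-reactive T cells are deleted or diverted. The nuclear protein AIRE and the transcription factor FEZF2 are needed for much of that expression, and subsets of mTEC are known that resemble tuft, skin, gut, muscle and other peripheral cells.

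The 2 subsets differed over most of the transcriptome. Of 19222 genes tested, 8303 were higher in mTEC (43.2% of genes tested) and 7577 were lower (39.4%) at an adjusted p under 0.05 with edgeR's quasi-likelihood test and Benjamini-Hochberg adjustment, and 3342 did not pass. With backgrounds of this size, a call of a gene says little without its size of difference, which is given throughout as the fitted log2 difference of mTEC minus cTEC ± its standard error (SE). The sizes were unequal in the 2 directions. Fitted differences of at least 4-fold were reached by 5550 of the genes higher and 718 of the genes lower in mTEC, and of at least 16-fold by 3878 and 87. Ratios of mean CPM were also taken, without TMM factors and with a group under 3 counts over its libraries set to 3. By these, differences of at least 10-fold were reached by 4549 and 131 genes and of at least 100-fold by 1038 and 0. Over all genes tested the median log2 difference was 0.04, the lower quartile was -0.62 and the upper quartile was 2.81.

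Genes were grouped by their level in cTEC, which is itself the subtracted term of the difference. High levels therefore lean to lower and low levels to higher in mTEC by construction. Grouping by the level in mTEC was not done. Among the 2906 genes with a mean of under 0.1 CPM (a gene's count scaled to the same total in every library) in cTEC, 99.5% were higher in mTEC, but such genes passed the filter on low counts only through mTEC or the heterozygous libraries and had to differ. Among the 7264 genes at 10 to 100 CPM in cTEC, 61.4% were lower in mTEC and 20.1% were higher, with a median log2 difference of -0.36. Among the 2560 genes at 100 CPM or more in cTEC, 79.6% were lower and 8.83% were higher, with a median of -0.66. In this grouping decreases lay mostly among genes abundant in cTEC and were moderate. The largest increases lay among genes that cTEC scarcely transcribed. How much of this the grouping itself builds in was not tested. The split depended on the scaling: the trimmed mean of M-values (TMM) factors were 0.907 to 0.915 in cTEC and 1.080 to 1.081 in mTEC, whereas relative log expression (RLE) scaling gave 9189 genes higher and 6219 lower with a median of all genes of 0.219, and scaling to total counts alone gave 9581 higher and 5724 lower with a median of 0.281. Moderate differences below are therefore read relative to these shifts, and list counts that turn with the scaling are given under each of them.

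**Figure D1:**
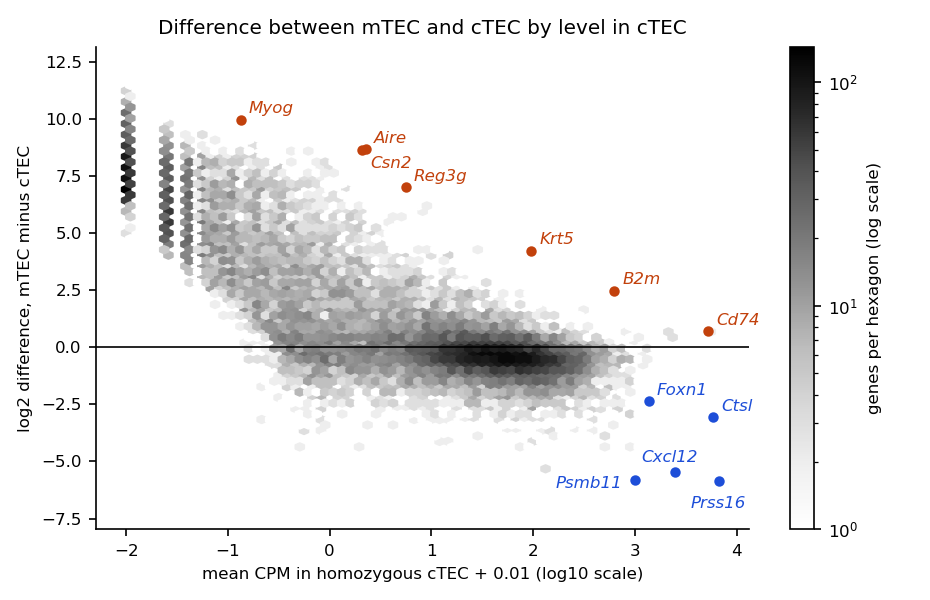
Each hexagon counts genes by their mean level in the 3 homozygous cTEC libraries (x axis, log10 of CPM plus 0.01) and by the fitted log2 difference of mTEC minus cTEC (y axis), with 12 genes labelled. Genes near 0 in cTEC lie far above the zero line and abundant cTEC genes lie mostly just below it, with Prss16, Psmb11 and Cxcl12 more than 5 log2 units below.

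Depth did not separate the subsets. Total counts of the 5 libraries ran from 21027043 to 22061738, mitochondrially encoded genes took 2.013% to 2.185% of counts in cTEC and 3.614% to 3.656% in mTEC, and the Spearman correlation between libraries of a group was 0.994 to 0.996 across genes. The markers that separate the gates differed in their direction: Enpep, which encodes Ly51, stood at 35 and 29.6 CPM in mTEC against 131, 126 and 136 CPM in cTEC. Fut2, a fucosyltransferase of the kind that makes the sugar bound by the UEA1 lectin, stood at 78.8 and 67.6 CPM against 0.701, 0.317 and 0.38 CPM, and both followed the gates. Ptprc, which encodes the CD45 that both gates exclude, was detected in all 5 libraries and was higher in mTEC, at 20.6 and 18.8 CPM against 9.21, 6.35 and 11 CPM (0.92). Of 5 sex-linked transcripts Ddx3y, Kdm5d and Uty were lower in mTEC, by log2 differences of -0.94, -1.05 and -0.61 (the last lost under RLE scaling, adjusted p = 0.121, and without mTEC library 2, adjusted p = 0.406), while Xist (-0.18, adjusted p = 0.632) and Eif2s3y (0.28, adjusted p = 0.299) did not pass, and Xist ran from 216 to 659 CPM between the cTEC libraries.

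Foxn1 itself was lower in mTEC. It measured 307 and 329 CPM in the mTEC libraries and 1484, 1299 and 1311 CPM in the cTEC libraries, and the groups did not overlap. The log2 difference was -2.34 ± 0.08 (adjusted p = 7.78e-12, edgeR), a 5.08-fold lower fitted level in mTEC. The gene lies at chr11:78357577-78386783 in GRCm38.p6, and reads of the transgene and of the nude alleles cannot be told apart in a table by gene symbol. In heterozygous mice the log2 difference was -1.32, and the difference between the genotypes, -1.02, passed the interaction test.

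The promoters of 3 genes known for their part in cTEC or mTEC are shown as sequence context for the expression values given below: Psmb11, which encodes the β5t subunit of the cTEC proteasome, Ccl25, a chemokine that draws progenitors into the thymus, and Aire. Each sequence runs from 250 bases before to 50 bases after the RefSeq gene start in GRCm38.p6, and capitals mark GACGC or its reverse complement GCGTC, the core that FOXN1 is known to bind. Psmb11 at chr14:54625060-54625359 (plus strand) held 2 matches, the Ccl25 start at chr8:4324960-4325259 (plus strand) held 2, the second Ccl25 start at chr8:4349338-4349637 (plus strand) held 0, and Aire at chr10:78043561-78043860 (minus strand) held 1.
Psmb11: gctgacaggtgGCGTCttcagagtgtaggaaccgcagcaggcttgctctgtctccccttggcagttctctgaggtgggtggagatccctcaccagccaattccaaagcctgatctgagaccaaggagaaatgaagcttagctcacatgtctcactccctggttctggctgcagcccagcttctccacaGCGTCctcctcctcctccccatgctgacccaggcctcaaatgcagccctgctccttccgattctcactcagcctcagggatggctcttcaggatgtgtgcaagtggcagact
Ccl25, first start: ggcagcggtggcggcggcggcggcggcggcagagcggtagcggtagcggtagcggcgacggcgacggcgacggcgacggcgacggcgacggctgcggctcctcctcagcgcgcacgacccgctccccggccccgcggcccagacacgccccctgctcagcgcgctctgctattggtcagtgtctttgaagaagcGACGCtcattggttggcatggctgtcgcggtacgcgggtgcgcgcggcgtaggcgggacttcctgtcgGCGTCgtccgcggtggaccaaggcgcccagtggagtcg
Ccl25, second start: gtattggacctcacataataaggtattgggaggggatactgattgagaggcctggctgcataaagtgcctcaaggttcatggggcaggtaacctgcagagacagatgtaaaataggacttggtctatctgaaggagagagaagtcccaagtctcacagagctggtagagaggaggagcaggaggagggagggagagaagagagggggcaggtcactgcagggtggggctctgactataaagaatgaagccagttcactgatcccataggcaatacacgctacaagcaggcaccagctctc
Aire: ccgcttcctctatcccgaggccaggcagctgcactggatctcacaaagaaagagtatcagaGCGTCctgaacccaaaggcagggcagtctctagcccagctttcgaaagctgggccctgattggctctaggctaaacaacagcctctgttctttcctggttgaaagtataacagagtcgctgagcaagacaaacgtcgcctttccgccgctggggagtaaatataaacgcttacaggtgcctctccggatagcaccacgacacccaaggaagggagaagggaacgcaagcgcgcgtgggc
The Psmb11 window held 4 CpG dinucleotides, the first Ccl25 window 52, the second 1, and the Aire window 16. At least 1 match stood in 27.2% of all 32851 RefSeq mouse promoters of this length and in 40.2% of those of tested genes. By the subset difference, a match stood in the promoters of 28.8% of the genes higher in mTEC, 50% of the genes lower in mTEC and 45.7% of the genes that did not pass.

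CpG content moved with both the motif and the subset difference. Promoters with 0 to 4 CpG dinucleotides held the motif in 5.71% of cases, and 79.2% of their 2135 genes were higher in mTEC, with a median log2 difference of 4.88. Promoters with 30 or more CpG dinucleotides held it in 68.8% of cases, and 25.8% of their 2548 genes were higher in mTEC while 57.9% were lower. Within the lowest CpG band the motif stood in 5.5% of higher and 6.6% of lower genes, and within the highest band in 66.6% of higher and 69.2% of lower genes. In the middle bands it stood in 22% and 26.7% (5 to 14 dinucleotides) and in 45.8% and 53.1% (15 to 29 dinucleotides). Higher genes thus held the motif less often than lower genes in each band, by smaller gaps than over all tested promoters, and these differences were not tested. These are counts of letters in a fixed window, and binding was not measured by them.

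The cortical programme was lower in mTEC almost throughout. Of 20 cortical identity genes 18 were lower in mTEC and 2 were higher, with a median log2 difference of -3.39, and their summed level was 4569 to 5301 CPM in mTEC against 31290 to 33540 CPM in cTEC. Prss16, a serine protease thought to generate class II peptides in the cortex, was at 174 and 98.8 CPM in mTEC and at 6773, 6330.4 and 7107 CPM in cTEC (-5.87 ± 0.27, adjusted p = 2.05e-10). Among genes at least 4-fold lower in mTEC it had the highest CPM in cTEC, without correction for length. Psmb11 measured 29.5 and 13.1 CPM in mTEC against 1053, 961 and 978 CPM in cTEC (-5.79 ± 0.25, adjusted p = 1.14e-10), and without mTEC library 1 the difference was -6.49. Ctsl, the lysosomal protease that trims class II ligands in cTEC, stood at 849 and 818 CPM against 5672, 5533 and 6199 CPM (-3.04 ± 0.11). The groups did not overlap for any of these 3 genes, and Ctsl kept a substantial level in mTEC.

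The factors by which cTEC recruit and instruct progenitors were lower in mTEC as well. Cxcl12, the chemokine ligand of CXCR4, was at 79.8 and 51.8 CPM in mTEC and at 2497, 2388 and 2524 CPM in cTEC (-5.47 ± 0.17). Ccl25 was at 110.1 and 82.5 CPM against 1039.6, 878 and 1214 CPM (-3.68 ± 0.14). The Notch ligand Dll4 was at 32.8 and 25 CPM against 538, 507 and 505 CPM (-4.40 ± 0.11). All 3 were at least 10-fold lower in the fit. The growth factor Kitl, at 21.2 and 18.6 CPM against 258, 266 and 291 CPM, showed a difference of -4.01, and the cytokine Il7, at 164 and 171 CPM against 255, 267 and 269 CPM, a smaller difference of -0.90. Of the 17 tested thymocyte attraction factors, 11 were lower and 6 higher, beside 39.4% and 43.2% of all genes tested. The higher ones included the CCR7 ligands Ccl19 (72.2 and 71 CPM against 1.68, 1.86 and 1.9 CPM) and Ccl21a (1827 and 2068 CPM against 35.9, 51.3 and 56.4 CPM), which guide selected thymocytes into the medulla.

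The remaining cortical genes covered a range of sizes. The endocytic receptor Ly75 stood at 68.5 and 62.2 CPM in mTEC and at 1172, 1081 and 1239 CPM in cTEC (-4.40 ± 0.12), the transcription factor Pax1 at 142 and 139 CPM against 1137, 1169 and 1082 CPM (-3.25 ± 0.07), and Tbata at 164 and 123 CPM against 1548, 1290.2 and 1387 CPM (-3.54 ± 0.14). Keratin 8, the classical cytoskeletal marker of cTEC, differed less: it was at 1861 and 1432 CPM against 3759, 3725 and 3859.6 CPM (-1.44 ± 0.10), so that it was abundant in both subsets. The 2 genes of the list that went the other way were Scx (1.88 ± 0.13) and the growth factor gene Tgfb2, at 86.7 and 92.6 CPM in mTEC against 2.66, 2.63 and 2.14 CPM in cTEC (4.93 ± 0.14).

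Outside the lists, the largest decreases by the naming rule were those of Prokr1, a prokineticin receptor gene, and Galr2, a galanin receptor gene. Prokr1 was at 0.278 and 0.324 CPM in mTEC against 16, 17.9 and 17.4 CPM in cTEC (-6.04), and Galr2 at 2.13 and 1.57 CPM against 92.1, 81.9 and 84.1 CPM (-5.78). Pkhd1l1 (-5.55), Cdh4 (-5.47), Cys1 (-5.44), Hmga2 (-5.43), Scn1a (-5.42), Spata25 (-5.41) and Ednrb (-5.36) followed. Among the most abundant cTEC transcripts, Gas6, a ligand of TAM receptors, fell to 389 and 383 CPM from 2437, 2308 and 2363 CPM (-2.86). The lipid transfer protein gene Pltp fell to 115.7 and 108.3 CPM from 1774, 1655 and 1705 CPM (-4.18). Receptors, a cadherin and secreted proteins thus stood among the genes that best separated cTEC from mTEC by size.

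**Figure D2:**
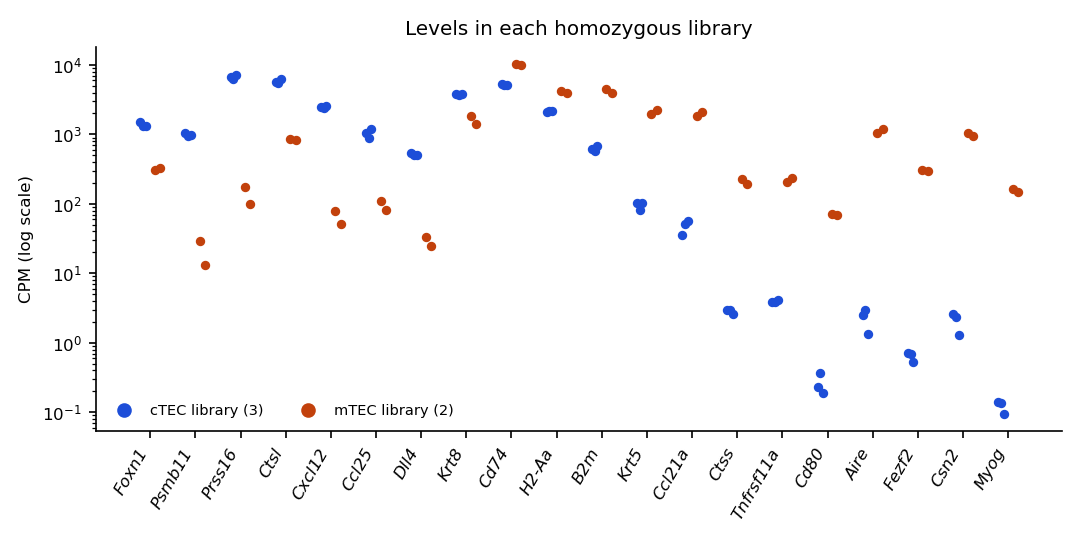
The CPM of 20 genes (log axis) is plotted for each homozygous library, with cTEC and mTEC in different colours. Cortical genes such as Psmb11 and Prss16 are lower in both mTEC libraries than in all 3 cTEC libraries, and Aire, Fezf2, Csn2 and Myog are the reverse, without overlap.

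Regulators of the medulla were mostly higher in mTEC, with the receptor Ltbr among the exceptions. Of 22 genes on this list 16 were higher and 6 were lower, beside 43.2% and 39.4% of all genes tested. The median log2 difference of the list was 1.80. Aire measured 1029 and 1188 CPM in mTEC and 2.48, 2.95 and 1.33 CPM in cTEC (8.69 ± 0.16, adjusted p = 6.4e-14), a 413-fold fitted difference. Fezf2, the zinc finger factor that drives a share of tissue-restricted genes apart from AIRE, was at 305 and 295 CPM against 0.701, 0.68 and 0.523 CPM (8.63 ± 0.11, adjusted p = 8.84e-15). In both cases every mTEC library stood far above every cTEC library. Spib, an ETS factor of the NF-kappaB-dependent mTEC programme, was at 591 and 546 CPM against 10.4, 11.5 and 11.5 CPM (5.43 ± 0.19). The ETS factor Ehf was at 257 and 232 CPM against 1.96, 1.9 and 1.57 CPM (6.83 ± 0.12).

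The tumour necrosis factor receptors that induce mTEC did not move together. Tnfrsf11a, which encodes RANK, was at 208 and 239 CPM in mTEC against 3.88, 3.81 and 4.19 CPM in cTEC (5.57 ± 0.10). Cd40 was at 154 and 133 CPM against 26.8, 25 and 30.9 CPM (2.14 ± 0.12). Ltbr, the lymphotoxin beta receptor, was lower, at 73.9 and 75.5 CPM against 220.2, 205 and 212 CPM (-1.75). The other 5 lower genes of the list were Traf3, Map3k14, Chd4, Hipk2 and Trp63. Trp63, the p63 factor of basal epithelium, stood at 251 and 298 CPM in mTEC against 629.5, 650.4 and 619 CPM in cTEC (-1.45 ± 0.08), and Sirt1, a deacetylase that acts on AIRE, was higher, at 316 and 317 CPM against 36.8, 34.7 and 35.9 CPM (2.90 ± 0.05).

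Surface molecules and chemokines of mTEC were higher for 23 of 24 genes, with a median log2 difference of 5.44. The costimulatory ligand Cd80 was at 72.1 and 68.6 CPM in mTEC against 0.234, 0.363 and 0.19 CPM in cTEC (7.79 ± 0.14). Icosl, the ligand of ICOS, was at 313 and 361 CPM against 3.55, 4.67 and 3.52 CPM (6.18). The exception was Cd274, which encodes the inhibitory ligand PD-L1 and was lower in mTEC, at 118 and 121 CPM against 262, 258 and 289 CPM (-1.42 ± 0.13). The costimulatory ligands Cd80 and Icosl thus differed in direction from PD-L1. Pdcd1lg2, which encodes the related ligand PD-L2, was among the 23 higher genes, so that PD-L1 does not stand for both.

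Libraries of mTEC held transcripts of many more genes. Genes detected per library with at least 1 count numbered 25387 and 25434 in mTEC (25410.5 ± 33.23, SD, n = 2) and 20196, 19818 and 19902 in cTEC (19972 ± 198.5, SD, n = 3), a difference of 5438.5 genes. At a common depth of 21027043 counts the expected numbers were 25326 and 25372 against 20160, 19723 and 19902, and with a minimum of 10 counts they were 19024 and 19040 against 14593, 14489 and 14476. The gap was many times the spread between libraries of a group, and no test was run, since an exact permutation test of 2 libraries against 3 cannot reach a p under 0.05. Counts in both mTEC libraries with 0 in all 3 cTEC libraries were found for 3368 genes, and the reverse for 93. Heterozygous mTEC held 23759 and 23799 genes, fewer than homozygous mTEC in both libraries, while heterozygous cTEC held 20033 to 20251.

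**Figure D3:**
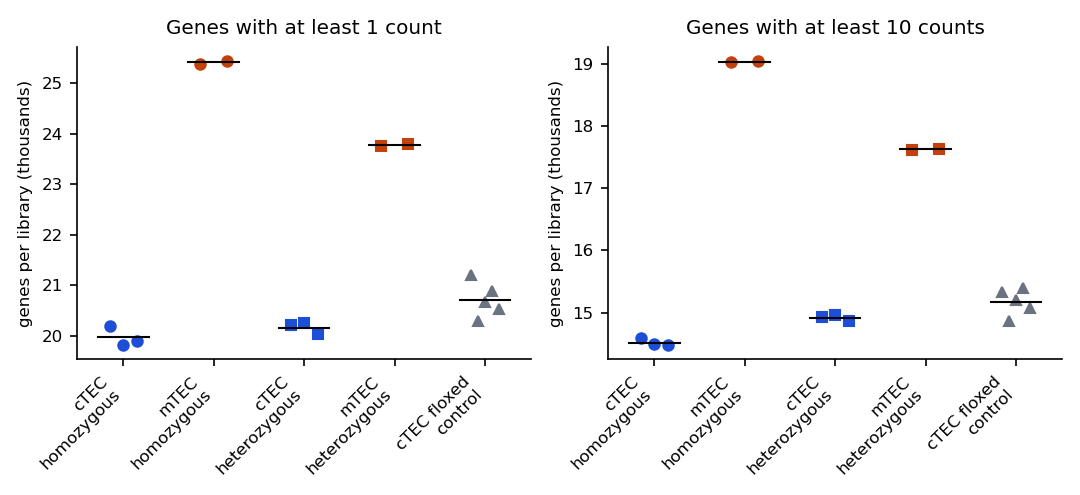
The number of genes with at least 1 and with at least 10 counts is plotted for each library of the 4 transgenic groups and of 5 control cTEC libraries (doxycycline-treated mice with the beta5t-rtTA locus and Foxn1 fl/fl but without the tetO-Cre transgene), with short lines at the group means; the y axis does not start at 0. Homozygous mTEC lie highest at 25387 and 25434 genes with at least 1 count, heterozygous mTEC next, and all cTEC groups lie at or below 21198 genes.

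Genes absent from cTEC included markers of many tissues. Pdyn, the precursor of the opioid dynorphin, was at 29.7 and 28.9 CPM in mTEC with no count in cTEC. With cTEC set to a floor of 3 counts over the group, it was at least 629.9-fold higher by mean CPM, without TMM factors. By the same bound Akr1c19 was at least 517.9-fold higher, Prg3 at least 408.5-fold, the milk casein gene Csn1s2a at least 388.1-fold and the bone-derived WNT inhibitor Sost at least 311.4-fold. Among genes with a few counts in cTEC, Myog, the myogenic regulator, had the largest fitted difference by the naming rule, at 161 and 147 CPM against 0.14, 0.136 and 0.0951 CPM (9.97 ± 0.29). It was followed by Cyp26a1 (9.26), Ceacam10 (9.20), Cd177 (9.18), Rgs21 (9.15), the intestinal homeobox gene Cdx1 (9.08), Cdh22 (9.02) and the egg-coat gene Zp2 (8.83). The fitted size of 4 of them rested on 1 cTEC library each: the value was 10.80 for Cyp26a1 and 10.08 for Rgs21 without cTEC library 1, 10.27 for Cdh22 without cTEC library 3 and 9.52 for Zp2 without cTEC library 2.

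Genes that are textbook examples of tissue-restricted antigens were higher in mTEC for 26 of the 27 tested, with a median log2 difference of 7.38. The median was 7.13 with genes of 3 or fewer cTEC counts in all held to at most their bound, which applied to 12 genes. The summed level of the list was 1697 to 1899 CPM in mTEC against 21.1 to 27.8 CPM in cTEC. Csn2, the milk protein beta-casein, made up most of it, at 1034 and 953 CPM against 2.62, 2.31 and 1.28 CPM (8.65 ± 0.15). Crp, the liver acute-phase protein, was at 36.5 and 38 CPM against 0.187, 0.0907 and 0.0951 CPM (7.93), and Calca, the precursor of calcitonin, at 130.0 and 102 CPM against 1.17, 1.31 and 0.904 CPM (6.43). The insulin gene Ins2 was at 7.87 and 5.18 CPM with counts of 0, 1 and 0 in the cTEC libraries, and its fitted difference of 8.05 became 10.04 without cTEC library 2. The albumin gene Alb, at 14.1 and 13 CPM against 0, 0.227 and 0.0476 CPM, went from 6.87 to 8.64 without that library. Fitted sizes of genes with so few cTEC counts depend on the prior count. Crygd, Tyr and Rbp3 were too low to be tested.

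Markers of peripheral cell types that subsets of mTEC are known to resemble were almost all higher in mTEC. Since most members had close to no counts in cTEC, they passed the filter on low counts only through mTEC, and the counts below describe them and do not test a list. In bulk libraries, fewer cells of a type and less RNA per cell cannot be told apart. Tuft cell genes were higher for 18 of 18, with a median log2 difference of 7.37 and a summed level of 2104 to 2311 CPM in mTEC against 48.7 to 51.8 CPM in cTEC. Gnat3, the taste G protein gustducin, was at 327 and 275 CPM against 0.561, 0.635 and 0.523 CPM (8.78), and Trpm5, the cation channel of taste and tuft cells, at 264 and 246 CPM against 0.935, 0.816 and 1.09 CPM (7.82). Receptors, signal transducers and regulators of tuft cells were thus all represented.

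Gut and liver genes followed, with 17 of 18 higher and a median of 6.96. The antimicrobial lectin Reg3g was at 951 and 772 CPM in mTEC against 7.01, 5.39 and 4.28 CPM in cTEC (7.03), and the epithelial mucin Muc13 at 146 and 129.8 CPM against 0.841, 0.771 and 0.523 CPM (7.34). The homeobox factor Cdx2 was at 8.57 and 8.7 CPM with no count in cTEC, at least 185.6-fold higher, and only the urea cycle enzyme Cps1 did not pass (0.13, adjusted p = 0.406). Microfold cell genes were higher for 10 of 10 (median 5.60), with the chemokine Ccl20 at 97.6 and 90.5 CPM against 0.841, 0.363 and 0.285 CPM (7.31, or 7.91 without cTEC library 1). Secretory lung genes were higher for 14 of 14 (median 6.02, or 5.72 at the bound). Among them Sftpd, surfactant protein D, was at 38.3 and 29.1 CPM against 0.327, 0.181 and 0.143 CPM, a 128-fold fitted difference.

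Neuroendocrine genes were higher for 18 of 18, with a median of 6.61, or 6.17 at the bound, and a summed level of 700.5 to 768 CPM against 7.39 to 8.51 CPM. The zinc finger factor Insm1 stood at 173 and 161 CPM against 0.514, 0.272 and 0.38 CPM (8.49 ± 0.12), and the neuropeptide gene Calcb at 239.8 and 219.8 CPM against 0.608, 0.408 and 0.38 CPM (8.69). Muscle genes were higher for 17 of 17 tested (median 6.09, or 5.57 at the bound), from Myog to structural genes such as the intermediate filament Des at 54.2 and 57.4 CPM against 0.467, 0.771 and 0.571 CPM (6.27). Cardiac actin Actc1 measured 50.3 and 54.3 CPM with counts of 1, 1 and 0 in the cTEC libraries. Transcripts of regulators and of structural products of these cell types were thus both found in mTEC.

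Keratinocyte genes were higher for 20 of 20 (median 5.33). Dsg1a, a desmosomal cadherin of skin, was at 354 and 399 CPM in mTEC against 1.31, 1.04 and 1.09 CPM in cTEC (8.11), and the barrier proteins Dmkn (7.73) and Krtdap (7.12) were higher by similar sizes, whereas keratin 10, of suprabasal skin, was higher by 0.98 only. Ionocyte genes were higher for 8 of 8 at low levels, with a summed 98.9 to 108.8 CPM in mTEC and a median of 6.61, or 6.21 at the bound. Foxi1, the ionocyte regulator, was at 13.3 and 12.1 CPM against 0.14, 0.0453 and 0.0951 CPM (6.77). Ciliated cell genes were the most uneven, with 10 of 13 tested higher (median 3.90). Foxj1, the regulator of motile cilia, was at 101 and 93.5 CPM against 4.63, 6.89 and 4.9 CPM (3.90), Trp73 (0.17, adjusted p = 0.286) and Rfx2 (0.21, adjusted p = 0.301) did not pass, and the dynein gene Dnah9 was lower by a call lost under RLE scaling (-0.17, adjusted p = 0.0656).

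Markers of cells that a sort may carry over were mostly higher in mTEC as well, with those of thymocytes as the exception. Over all genes tested 43.2% were higher and 39.4% lower. Macrophage and dendritic cell markers were higher in mTEC for 12 of 12 tested and summed to 605.5 to 696.1 CPM against 23.8 to 25.8 CPM in cTEC, of which Lyz2 alone accounted for 552 and 462 CPM in mTEC. B cell markers were higher for 6 of 6 and summed to 42.3 to 51.3 CPM against 0.333 to 0.635 CPM, with Blk at 0 in all 3 cTEC libraries. Fibroblast markers were higher for 7 of 10 and lower for 1, Fbln1 (254.4 to 287.3 CPM against 143.6 to 153.3 CPM in sum), endothelial markers were higher for 6 of 8 (57.4 to 67.4 CPM against 5.37 to 6.83 CPM), and erythroid markers for 5 of 5 tested (12.5 to 17.5 CPM against 0.317 to 1.68 CPM). Thymocyte markers were split, with 6 of 18 higher and 4 lower, and summed to 184.3 to 215.6 CPM against 121.4 to 177.4 CPM. The part of such cells in the higher levels of the lists above was not tested, and mTEC also transcribe genes of other tissues.

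**Figure D4:**
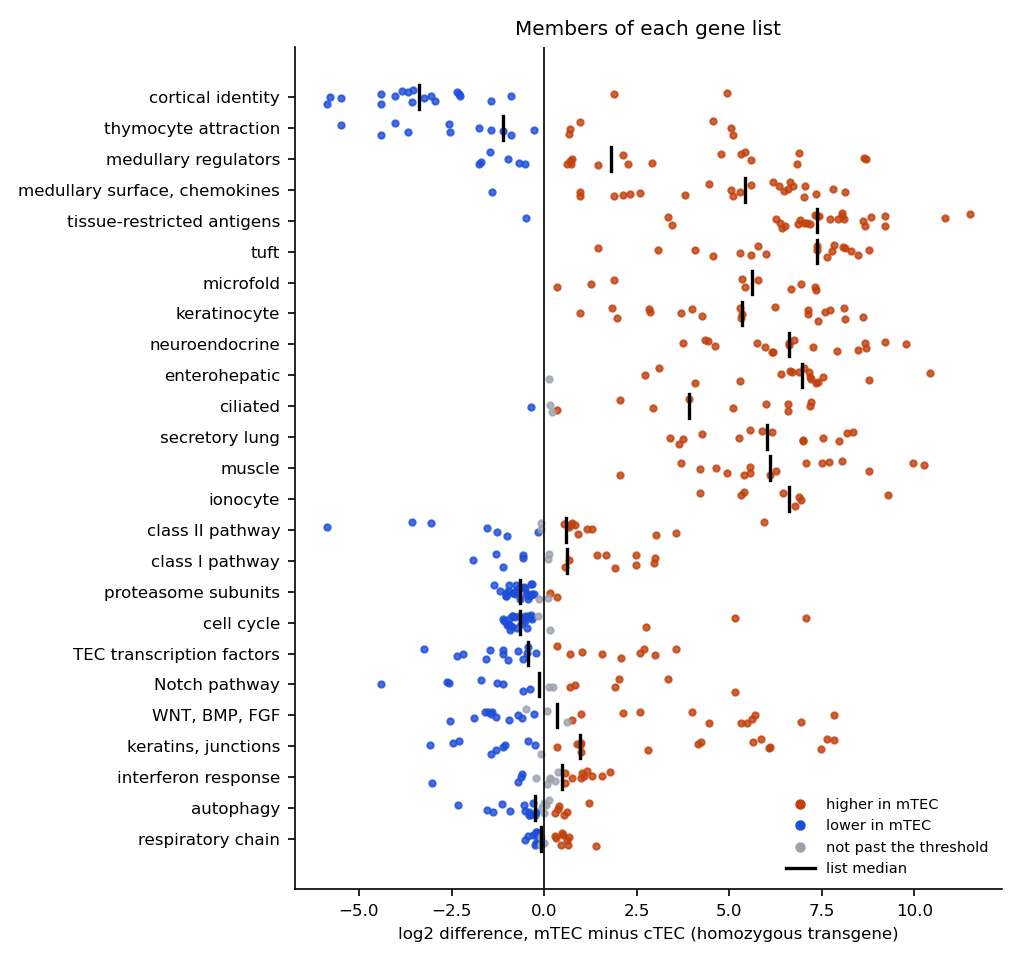
Each point is the fitted log2 difference of mTEC minus cTEC (homozygous) for a gene of 1 of 25 lists, with a line at the list median and a vertical line at 0. Lists of peripheral cell types have medians between 3.90 and 7.37, cortical identity has a median of -3.39, and proteasome, cell cycle and Notch lists scatter around or just below 0.

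Components of antigen presentation differed by step. In the class II pathway 11 of 20 genes were higher in mTEC and 7 lower, beside 43.2% and 39.4% of all genes tested. The invariant chain Cd74 was at 10140.0 and 9882 CPM in mTEC against 5318, 5077 and 5119.5 CPM in cTEC (0.71 ± 0.08), and the class II chain H2-Aa at 4252 and 3895 CPM against 2114, 2151 and 2164 CPM (0.68 ± 0.07), so that both subsets carried them at high levels. Their transactivator Ciita was nevertheless lower in mTEC, at 183 and 196 CPM against 483, 462 and 449.7 CPM (-1.54 ± 0.09). The lysosomal proteases differed in direction: Ctss, which removes the invariant chain in mTEC and in antigen-presenting cells, was at 224 and 192 CPM against 2.99, 2.99 and 2.57 CPM (5.94 ± 0.14), while Ctsl and Prss16 were lower in mTEC. The peptide editors H2-DMa (-1.26) and its inhibitor subunit H2-Ob (3.57) also went in opposite directions, and Cd83, a surface protein that keeps class II on cTEC, was lower at 26.8 and 20.5 CPM against 223, 210.4 and 276 CPM (-3.56 ± 0.17). Ctsd (-0.08, adjusted p = 0.275) and March8 (-0.09, adjusted p = 0.291) did not pass.

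Class I molecules were higher in mTEC. B2m, the class I light chain, was at 4457 and 3874 CPM in mTEC against 620.4, 578 and 688 CPM in cTEC (2.49 ± 0.15, adjusted p = 3.35e-09), H2-K1 at 4804 and 4483 CPM against 1269, 1164 and 1274 CPM (1.67), and H2-D1 at 3722 and 3476 CPM against 789, 786 and 847 CPM (1.91). Their transactivator Nlrc5 was higher as well, at 83.6 and 118 CPM against 11, 9.2 and 11.8 CPM (3.00). Of 16 class I pathway genes 9 were higher and 5 lower, beside 43.2% and 39.4% of all genes tested. The lower ones included the peptide-trimming enzyme Erap1 (-1.10) and the immunoproteasome subunits Psmb9 and Psmb10.

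Catalytic proteasome subunits divided by subset. Psmb11 was lower in mTEC as given above, and Psmb8, the immunoproteasome subunit that takes the same β5 position, was higher, at 108 and 106 CPM in mTEC against 17.4, 15.1 and 15.7 CPM in cTEC (2.49 ± 0.20). The constitutive β5 subunit Psmb5 differed little, at 92 and 77.7 CPM against 94.3, 102 and 95.8 CPM (-0.44 ± 0.08, adjusted p = 0.000221). The immunoproteasome subunits of the other catalytic positions were lower in mTEC, Psmb9 at 100.4 and 81.5 CPM against 304, 288 and 285 CPM (-1.93) and Psmb10 at 183 and 159 CPM against 366, 356 and 336 CPM (-1.29). The 3 immunoproteasome genes therefore did not form a common group in this comparison. The activator subunits Psme1, at 197 and 176 CPM against 21.1, 21.2 and 17.7 CPM (2.98), and Psme2 (1.43) were higher.

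The structural proteasome was lower in mTEC by small steps. Over all genes tested 39.4% were lower and 43.2% higher. Among all genes at 100 CPM or more in cTEC 79.6% were lower, with a median of -0.66. Of 31 constitutive core and regulatory subunits 27 were lower and 2 higher, with a median log2 difference of -0.64 beside 0.04 for all genes tested. RLE scaling gave 24 lower and 3 higher with a median of -0.46, and scaling to total counts 22 lower and 3 higher with -0.40. Their summed level was 3949 to 4347 CPM in mTEC against 5389 to 5453 CPM in cTEC. Psmb4 was at 194 and 172 CPM against 402, 394 and 382 CPM (-1.35 ± 0.07), and the ATPase subunit Psmc2 at 130.0 and 127 CPM against 223, 218 and 218 CPM (-1.02). The exceptions were Psmd8 (0.34 ± 0.07, adjusted p = 0.000545) and Psmd13 (0.15 ± 0.06, adjusted p = 0.0363), the latter lost when any cTEC library or mTEC library 1 was left out, with adjusted p from 0.0645 to 0.386.

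Most proliferation genes measured were lower in mTEC, where 39.4% of all genes tested were lower and 43.2% higher. Among all genes at 10 to 100 CPM in cTEC 61.4% were lower, and at 100 CPM or more 79.6%. Of 28 cell cycle genes 23 were lower and 3 higher (median -0.66; 20 lower and 4 higher under RLE scaling, 17 lower and 4 higher under total counts). Mki67, a protein of cycling cells, was at 118 and 147 CPM in mTEC against 212, 251 and 264 CPM in cTEC (-1.11 ± 0.13), and the topoisomerase Top2a at 95.5 and 104 CPM against 165, 182 and 188 CPM (-1.08). The 3 higher genes were the cyclin Ccnd1, at 107 and 116 CPM against 2.24, 2.63 and 3.09 CPM (5.15), and the inhibitors Cdkn1a, at 198 and 180.4 CPM against 26.9, 20.9 and 22.9 CPM (2.76), and Cdkn2a, at 32.7 and 28.5 CPM against 0.234, 0.181 and 0.143 CPM (7.08), whereas the inhibitor Cdkn1b was lower (-0.72). Ccnd3 (0.17, adjusted p = 0.313) and Aurka (-0.17, adjusted p = 0.263) did not pass.

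Most keratins measured were higher in mTEC, and Krt8 and Krt18 were not. Krt5 was at 1983 and 2269 CPM in mTEC against 102, 82.1 and 102 CPM in cTEC (4.24 ± 0.11), and its partner Krt14 at 809.6 and 870.2 CPM against 40.3, 40.3 and 39.9 CPM (4.14 ± 0.08). Krt18, the partner of Krt8, was lower at 915 and 828 CPM against 3748, 3608 and 3564 CPM (-2.31). Krt19, of simple epithelia, was at 140.0 and 121 CPM against 1.82, 1.95 and 1.14 CPM (6.06). Of the 25 genes of this list 15 were higher and 9 lower, the lower ones including desmoplakin, Dsp (-2.45), and plakoglobin, Jup (-1.12). The shares over all genes tested were 43.2% higher and 39.4% lower. The adhesion gene Cdh1 did not pass (-0.10, adjusted p = 0.21) and turned to 0.15 under total-count scaling.

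Transcription factors of the thymic epithelium were lower for 13 of 22 and higher for 9. Over all genes tested the shares were 39.4% and 43.2%. Besides Foxn1 and Pax1, the pharyngeal factor Hoxa3 was lower, at 6.94 and 7.36 CPM in mTEC against 30.6, 26.7 and 25.3 CPM in cTEC (-2.19). Higher genes included the epithelial factors Klf4 (3.57) and Klf5 (2.58) and Id2, an inhibitor of basic helix-loop-helix factors, at 85.5 and 85.3 CPM against 10.4, 8.97 and 7.94 CPM (2.98). Id3 was higher by 0.71, a call lost in both fits that left out an mTEC library, with adjusted p of 0.141 without library 1 and 0.0747 without library 2, also without cTEC library 2 (0.0523) or cTEC library 3 (0.053), with limma-voom (0.056) and with no filter on low counts (0.0518).

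Of 26 WNT, BMP and FGF genes 12 were higher and 11 lower, shares close to those over all genes tested (43.2% and 39.4%). Wnt4, a WNT ligand made by TEC, was lower at 115 and 123 CPM in mTEC against 611, 558 and 584 CPM in cTEC (-2.54 ± 0.07), and Bmp7 was lower by -1.41. Bmp2, at 68.1 and 68.7 CPM against 3.04, 1.99 and 2.85 CPM (4.46), and the BMP antagonist Grem1, at 53.8 and 49.2 CPM against 0.374, 0.0453 and 0.143 CPM (7.83, or 8.79 without cTEC library 1), were higher. A ligand and an antagonist of the same pathway were thus both more abundant in mTEC.

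In the Notch pathway 6 of 16 genes were higher and 8 lower, with a median of -0.13. Over all genes tested 43.2% were higher and 39.4% lower. The Notch counts turned to 8 higher and 7 lower, with medians of 0.05 and 0.11, under RLE and total-count scaling. The ligands Dll4 and Jag2, the latter at 114 and 137 CPM in mTEC against 649, 617 and 618 CPM in cTEC (-2.57), were lower, and the ligand Jag1 was higher at 66.9 and 81.8 CPM against 40.0, 36.6 and 40.3 CPM (0.69). The target Hey1 was lower (-2.63), whereas Hes1 (0.12, adjusted p = 0.131) did not pass. The fringe glycosyltransferases, which tune Notch receptors to their ligands, were higher, Mfng at 44.3 and 39.8 CPM against 1.08, 0.635 and 1.28 CPM (5.15) and Lfng at 18.5 and 15.4 CPM against 1.22, 1.68 and 1.33 CPM (3.34).

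Metabolic, stress and interferon lists were mixed, beside 43.2% of genes higher and 39.4% lower over all genes tested. Interferon response genes were higher for 10 of 20 and lower for 4, with Mx1 at 58.2 and 79.7 CPM in mTEC against 20.4, 15.2 and 15.7 CPM in cTEC (1.77) and Isg20, an exonuclease, at 39.3 and 32.3 CPM against 261, 227 and 248 CPM (-3.02). Immediate early genes were higher for 8 of 22 and lower for 11, with Egr1 at -2.07 and Fosl2 at 3.04, and the call of Fos was lost without mTEC library 2 (-1.35, adjusted p = 0.071). Cholesterol synthesis genes were higher for 10 of 19 tested and lower for 6, among them Ebp (1.94) and Sc5d (-1.27). Autophagy genes were lower for 13 of 24 and higher for 6 (median -0.24), against 10 and 10 under RLE scaling and 9 lower and 11 higher under total counts. Respiratory chain genes were higher for 9 of 22 and lower for 9 (median -0.08), against 10 higher and 2 lower under RLE scaling and 12 higher and 2 lower under total counts. For the last 2 lists, therefore, no direction held across scalings, although Map1lc3a, an autophagosome protein (1.21), and the electron carrier Cycs (1.41) were higher by more than the shift of the median.

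At the lower transgene dose the same subset difference was smaller for many genes. In heterozygous mice 7763 genes were higher in mTEC (40.4% of genes tested) and 6080 lower (31.6%), fitted on separate libraries. Genes higher in both genotypes numbered 6692, which is 80.6% of those higher in homozygous mice and 86.2% of those higher in heterozygous mice, and genes lower in both numbered 5227, or 69% and 86%. Opposite calls were made for 265 of the genes higher and 387 of the genes lower in homozygous mice. The test of the difference between the 2 subset differences, the interaction of the same edgeR fit, passed for 8162 genes (42.5% of genes tested). Among genes higher in homozygous mTEC it passed for 3197, of which 2735 had the larger difference in homozygous mice, and among genes lower in homozygous mTEC for 4258, of which 3973 had the larger difference there. Choosing genes by their homozygous call favours that side. Chosen by the heterozygous call instead, the interaction passed for 2971 higher genes, of which 1736 had the larger difference in homozygous mice and 1235 the smaller, and for 3140 lower genes, of which 2308 had the larger and 832 the smaller.

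Cortical genes carried some of the clearest interactions. Ccl25 was at 5.13 and 5.47 CPM in heterozygous mTEC and at 5.67, 6.35 and 6.1 CPM in heterozygous cTEC (-0.27, adjusted p = 0.24), so that its subset difference of -3.68 in homozygous mice had no called counterpart, and the interaction was -3.41 (adjusted p = 4.2e-07). Its level in cTEC itself thus stood apart between the genotypes, at 878 to 1214 CPM in the homozygous libraries. Psmb11 was at 3.63 and 5.05 CPM against 107, 101 and 107 CPM in heterozygous mice (-4.68), and the interaction of -1.11 reflected a larger difference in homozygous mice. Of the 20 cortical genes the interaction passed for 18, beside 42.5% of all genes tested.

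Of the 22 medullary regulators the interaction passed for 13, beside 42.5% of all genes tested. Ehf was among the 13 (2.98, from 3.84 in heterozygous to 6.83 in homozygous mice), but Aire and Fezf2 were not. Aire differed by 9.38 in heterozygous mice against 8.69 in homozygous mice (interaction -0.69, adjusted p = 0.066), and Fezf2 gave an interaction of -0.89 (adjusted p = 0.05). These p-values miss the threshold narrowly and do not show that the subset differences were alike. Cd40 did pass, with 3.54 in heterozygous against 2.14 in homozygous mice (interaction -1.40). Of the 27 tested tissue-restricted antigens the interaction passed for 4, of 18 neuroendocrine genes for 5 and of 17 muscle genes for 4, all smaller shares than over all genes tested, but the low cTEC counts of these genes leave the interaction imprecise.

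Keratinocyte genes were those among the peripheral lists with the most interactions, 14 of 20, beside 42.5% of all genes tested. Dmkn differed by 7.73 in homozygous and 2.86 in heterozygous mice (interaction 4.87), Krtdap by 7.12 and 1.40 (interaction 5.72), and the protease inhibitor Spink5 by 5.31 and -0.27 (interaction 5.58), while Dsg1a differed by 8.11 and 8.60. Krt19 behaved like the former, with 6.06 in homozygous and 0.32 in heterozygous mice (interaction 5.74). Krt5 and Krt14 also differed less in heterozygous mice, by 1.66 and 1.86 (interactions 2.58 and 2.29). Their mean levels in cTEC were 547 and 197 CPM in heterozygous and 95.3 and 40.1 CPM in homozygous mice. In mTEC the means were 1835 and 757 CPM in heterozygous and 2126 and 840 CPM in homozygous mice.

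The counts of the proteasome list reversed between genotypes under TMM scaling. Of the 31 subunits 27 were lower and 2 higher in homozygous mTEC, and the interaction passed for 30, beside 42.5% of all genes tested. In heterozygous mTEC 22 were higher and 1 lower, beside 40.4% and 31.6% of all genes tested. The heterozygous counts were not computed under the other scalings. TMM factors were 0.9843 to 1.011 in heterozygous cTEC and 1.06 to 1.065 in heterozygous mTEC. In homozygous mice they were 0.9068 to 0.9145 and 1.08 to 1.081, so that scaling also enters the interaction. For Psmb4, which kept its sign, the subset difference was -1.35 in homozygous and -0.03 in heterozygous mice (interaction -1.31). For Psmc2 it was -1.02 and 0.16. Proliferation genes differed likewise: 23 of 28 were lower in homozygous mTEC but 4 in heterozygous mTEC, beside 39.4% and 31.6% of all genes tested. Mki67 did not pass in heterozygous mTEC (-0.18, adjusted p = 0.2). The interaction passed for 23 of the 28, beside 42.5% of all genes tested.

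**Figure D5:**
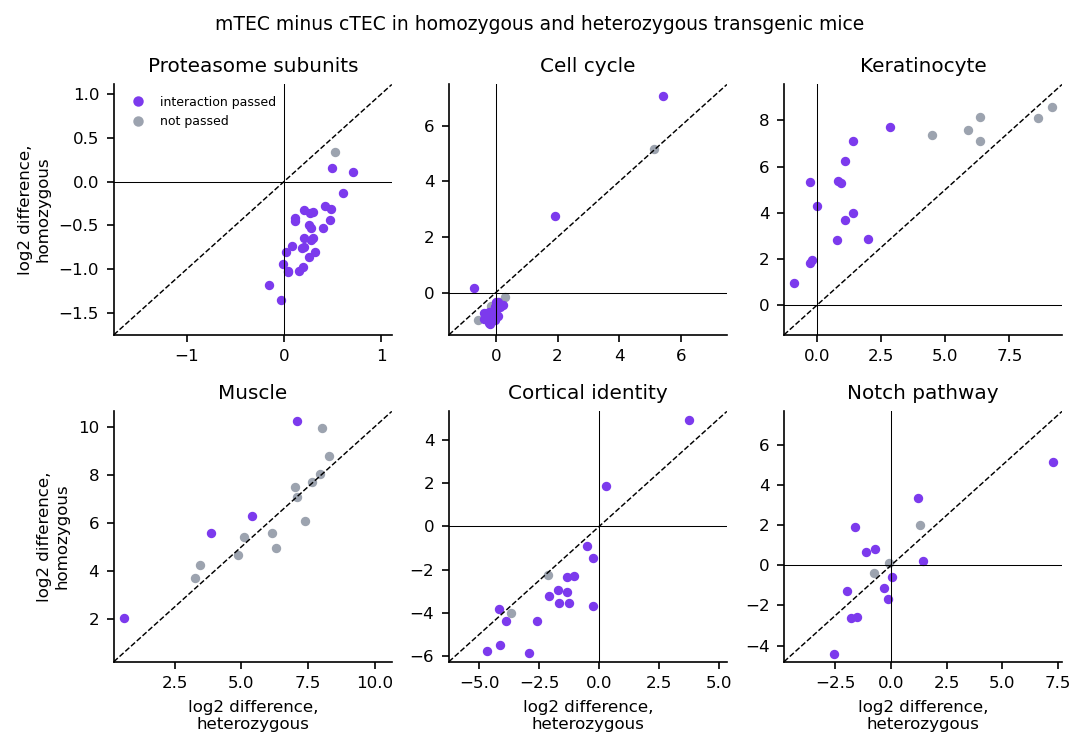
The fitted log2 difference of mTEC minus cTEC in heterozygous mice (x axis) is plotted against that in homozygous mice (y axis) for the genes of 6 lists, with the diagonal and both zero lines; purple points passed the interaction test. Most proteasome and cell cycle genes lie below the diagonal, keratinocyte genes with an interaction lie above it, and most muscle genes lie near it.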

How the data were processed

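Counts of reads per gene symbol in 20 libraries were deposited by the authors as a single table of 38720 symbols, of which 15 were used; the other 5, of cTEC in which floxed Foxn1 was deleted with doxycycline, belong to no comparison here and were not used. Per the labels' protocols, poly(A) RNA of sorted cells was made into TruSeq libraries. The submitters' processing notes name the builds mm10 and GRCm38, TopHat2 2.0.10, Bowtie2 2.2.3, BWA 0.7.5, Trimmomatic 0.32, Picard 1.105, MACS2 2.0.10, featureCounts and SAMtools for a series that also holds ChIP-seq and ATAC-seq; which of them made the counts, with which annotation and strand setting, is not stated. Without a known strand setting, overlapping and antisense genes may share reads, and near-identical family members may split them.

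From the counts, genes were filtered with filterByExpr (minimum count 10, minimum total 15), scaled with TMM factors and fitted with edgeR 4.0.16 (R 4.3.3) by the quasi-likelihood test, two-sided, over the 10 transgenic libraries in 4 groups, which left 6 residual degrees of freedom. All adjusted p-values are from this edgeR fit with the Benjamini-Hochberg method over 19222 genes (threshold 0.05), unless another tool is named; SE is the log2 difference divided by the square root of the F statistic. CPM values use total counts, log2 differences use TMM-scaled totals, so that their ratios differ by the scaling. The prior count was 0.125. Fold bounds set a group with under 3 counts in total to 3 counts and use CPM without TMM factors. The fit was also run on simulated counts in which few genes differed, unlike these data, so that run does not test the scaling used here.

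The members and the gene lists were chosen with earlier results of these data known. Named genes were a set chosen for their roles, the largest differences, genes absent from a subset, abundant genes at least 4-fold different, up to 3 genes per list and direction, and the largest interactions; 41 further genes were added after their values were seen. Some list members are given by their counts alone, and a few are not reported here. Library numbers in the table did not pair mTEC with cTEC libraries (correlations of deviations -0.0656 to 0.0656). Promoters and gene positions are from RefSeq (GRCm38.p6), in which 17302 tested genes, 90.0%, were matched by symbol; Prss16 had no promoter entry. Alternatives were RLE factors, no factors, no filter, DESeq2 1.42.0, limma 3.58.1 (voom), a replicate block, the 5 homozygous libraries alone and leaving out each library.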

Additional observations from a re-analysis of the deposited data

Results flagged for a closer look

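The subset difference itself was tested for a change between the homozygous and heterozygous mice, and 8162 genes passed. Those given here are the 5 largest interactions in each direction by the naming rule and the list members that were called in opposite directions in the 2 genotypes with at least a 4-fold change between them. The interaction is the log2 subset difference of homozygous minus that of heterozygous mice.

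Genes with the most negative interactions were Ppp1r27 (-5.30, from 2.09 in heterozygous to -3.21 in homozygous mice), the fibroblast growth factor homologue Fgf14 (-5.29, from 1.29 to -4.01), the protocadherin Pcdh15 (-4.89, from 5.19 to 0.30), the neuronal gene Nsg2 (-4.15, from 7.05 to 2.90) and the organic anion transporter Slc22a7 (-4.07, from -0.05 to -4.11). For Fgf14 the homozygous cTEC libraries stood at 156, 156 and 159.7 CPM and the heterozygous ones at 0.777, 0.649 and 1.24 CPM, while mTEC libraries ran from 1.98 to 13.5 CPM, so that the cTEC level set the change. Ppp1r27 had the same form, at 46.7, 48.5 and 41.9 CPM against 1.64, 1.53 and 1.56 CPM in cTEC. The homozygous call of Pcdh15 was lost without cTEC library 1 (adjusted p = 0.112), cTEC library 2 (0.0825) or mTEC library 2 (0.39) in edgeR.

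The most positive interactions were those of Krt13 (6.71, from 0.63 in heterozygous to 7.33 in homozygous mice, the latter 11.02 without cTEC library 2), the chemokine Ccl11 (6.44, from -0.01 to 6.43), the haematopoietic regulator Lmo2 (6.44, from 0.59 to 7.02, the latter 7.69 without cTEC library 2), the fibrinogen chain Fgg (6.23, from -0.45 to 5.78) and the inner ear gene Otog (6.19, from -1.28 to 4.91). In each of these 5 genes the homozygous cTEC libraries were below 1 CPM. Otog stood at 0.14, 0.363 and 0.19 CPM in homozygous cTEC and at 18.6, 24.7 and 26.9 CPM in heterozygous cTEC.

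List members called in opposite directions with a called interaction numbered 41, of which 18 were proteasome subunits. The 9 with at least a 4-fold change were Notch3 (3.54, from -1.63 to 1.91), Gata3 (2.89, from -0.82 to 2.07), Wnt5a (2.72, from -0.58 to 2.14), Id3 (2.28, from -1.57 to 0.71, the latter not called with limma-voom or without some libraries), Id1 (2.26, from -1.23 to 1.03), Cd8a (-2.42, from 0.99 to -1.42, the latter -2.03 without mTEC library 1), Col1a2 (3.51, from -1.78 to 1.72), Dcn (2.66, from -1.47 to 1.19) and Lum (3.26, from -0.54 to 2.72). Col1a2, Dcn and Lum are matrix genes on the fibroblast marker list, and they were higher in cTEC than in mTEC only in heterozygous mice: Dcn was at 155, 152 and 153 CPM in heterozygous cTEC and at 30.4, 28.1 and 32.1 CPM in homozygous cTEC. Cd8a is a thymocyte marker. The part of fibroblasts or thymocytes in these values was not tested.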

How the results depend on the processing

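The counts of genes higher and lower in mTEC stayed within 1.5 times their values under every alternative tried. With the filter on low counts removed they were 10000 and 7168, with DESeq2 8868 and 5961, with limma-voom 8306 and 7582, and with the 5 homozygous libraries alone 8641 and 6861. Whether library numbers pair the samples is not known. With them as a replicate block the counts were 7973 and 7143 in homozygous mice, 6879 and 5325 in heterozygous mice, and 6063 for the interaction. Leaving out each library gave 8132 to 9141 genes higher and 6843 to 7682 lower in homozygous mice, 7517 to 8020 and 4488 to 6201 in heterozygous mice, and 6722 to 8175 for the interaction. Genes lower in mTEC made up 47.7% of calls with TMM, 40.4% with RLE, 37.4% with no factors and 40.2% with DESeq2; of 15880 calls 14522, 14027 and 14173 were kept in the same direction. The difference in genes detected per library was 4852.17 at a minimum of 5 counts and 4512.67 at 10 counts, against 5438.5, and 5361.5 to 5550.5 when a library was left out. The share of counts in the 100 most abundant genes was 1.43724 percentage points higher in mTEC, and 0.144798 without mitochondrially encoded genes, which this alternative leaves out by construction. Of 300 single genes, 14 lost a call or turned sign past the threshold and 20 moved by over 1.5 times when a library was left out. Signs turned with no normalization factors for Ctsd (0.1671), Gabarap (0.1877), Nbr1 (0.2379), Cdh1 (0.1482), Ndufa4 (0.1694) and Ndufb5 (0.158), and for Nbr1 also with RLE (0.1756) and DESeq2 (0.1757), by the shift of the scaling. With 2 mTEC libraries per genotype, a fit without one of them assumes that the other varies like the rest.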

Other observations

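Gene families named by symbol gave a further view of what mTEC transcribed. All tested taste receptors (30 of 30), kallikreins (26 of 26), cornified envelope genes of the Sprr and Lce families (30 of 30), defensins (15 of 15), mucins (12 of 12), UDP glucuronosyltransferases (12 of 12), Skint genes (10 of 10) and major urinary proteins (9 of 9) were higher in homozygous mTEC than in cTEC, and none was lower, beside 43.2% higher and 39.4% lower over all genes tested. Cytochrome P450 genes were higher for 62 of 71, serpins for 51 of 57, keratins for 36 of 39, chemokine ligands for 34 of 37 and Hox genes for 26 of 32. Most members had close to no counts in cTEC and passed the filter through mTEC, and close paralogs may share reads. Of 1097 olfactory receptors 18 could be tested, of which 15 were higher in mTEC. In the opposite direction, genes named Zfp, zinc finger proteins of which many are KRAB repressors, were lower in mTEC for 227 of 319 and higher for 35 (179 and 49 with RLE factors, 168 and 52 with none).

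Some genes higher in mTEC lay in runs along the chromosomes. Counting stretches of at least 6 neighbouring tested genes that were all at least 4-fold higher in mTEC, 101 were found. Genes that were not tested were skipped, so that silent members of a cluster did not break a stretch. Many members passed the filter on low counts only through mTEC, which partly builds such stretches in. The number to be found from the share of 4-fold higher genes alone was not computed. By this measure (the ratio of mean CPM) 5765 genes were higher and 539 lower by at least 4-fold, so that numbers of stretches in the 2 directions cannot be compared. The longest held 33 genes, mostly of the S100a, Sprr and Lce families, at chr3:90603770-92687210 in RefSeq GRCm38.p6, with a median fold of 27.4. The kallikrein cluster at chr7:43680880-44229622 held 27 genes, all but 1 of them kallikreins, with a median fold of 115.0, the bitter taste receptor cluster at chr6:131486406-133853667 held 25 genes, mostly receptors, with 43.3, the keratin cluster at chr15:101459061-101996624 held 20 with 86.3, and the Skint cluster with the neighbouring Slc5a9 at chr4:111875374-113286973 held 10 with 174. These are clusters of related genes, so that neighbours in a run are not independent of each other.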
